A study of Homo sapiens with 9 samples.

Results

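The genes described here encode enzymes that hydroxylate and cross-link collagen: the 5 lysyl oxidases LOX, LOXL1, LOXL2, LOXL3 and LOXL4, the 3 lysyl hydroxylases PLOD1, PLOD2 and PLOD3, and 2 of the prolyl 4-hydroxylase alpha subunits, P4HA1 and P4HA2. They were taken by symbol from the gene rows, and were chosen with earlier results of these data known. All 10 were found among the 59453 gene names, and all 10 were among the 16556 genes with enough counts to be tested. RNA-Seq libraries were made from MDA-MB-231, an established human triple-negative breast cancer cell line, in 3 groups of 3 libraries. The groups were untreated cells, cells given TEPA for 8 h and cells given TEPA for 24 h. TEPA is a polyamine that chelates copper. The labels give its concentration as 8 mM, whereas the RNA sequencing methods of the study name a lower one. A treatment text in the labels names 24 h for every sample, and the times used here are those of the individual sample labels. The same untreated libraries serve as the reference for both times. No source used here says that the 3 libraries of a group came from separate cultures, so p-values measure only the spread between these libraries, which may be technical.

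Lysyl oxidases are secreted amine oxidases that need copper. They oxidize lysines and hydroxylysines of collagen and elastin to aldehydes, which then condense into the covalent cross-links that make a matrix stiff and insoluble. LOX and LOXL1 carry a propeptide that is cleaved outside the cell, while LOXL2, LOXL3 and LOXL4 carry scavenger receptor domains. The hydroxylases act earlier, on procollagen inside the endoplasmic reticulum, and need iron, 2-oxoglutarate and ascorbate instead of copper. Prolyl 4-hydroxylation, by alpha subunits paired with the beta subunit P4HB, makes the collagen triple helix stable at body temperature. Lysyl hydroxylation sets the chemistry of the later cross-link, PLOD2 being the enzyme best known for hydroxylating the telopeptides. In solid tumors LOX, PLOD2 and P4HA1 are textbook targets of the hypoxia-inducible factors, which bind a short core motif, ACGTG or GCGTG.

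The 250 bases before the start of each gene in RefSeq (GRCh38.p14) were read for that motif because at least 3 of the members are known hypoxia targets. Of the 10 members, 9 matched an entry and LOXL2 did not, and the 9 had 12 start windows in all. ACGTG, searched on both strands, was found for 3 of the 9, LOX, PLOD2 and P4HA1, and in 18.5% of all 35116 promoters of the same length. GCGTG was found for 4 of the 9 and in 32.2% of all promoters. The core of the metal response element, TGCACNC or TGCGCNC, was found for 1 of the 9 and in 24.8% of all promoters. The sites below lie on the minus strand of chr5 (LOX), chr3 (PLOD2) and chr10 (P4HA1), and are written 5′ to 3′ along the gene with the motif in capitals, CACGT being the same motif on the other strand. Of the 5 matches for LOX, the one nearest a RefSeq start is shown. The gene extents in GENCODE, given further on, begin upstream of every site printed here, so by that annotation these sites lie within the genes and not before them.
LOX, 42 bases before a RefSeq start, chr5:122078285-122078313: gtaactttgcaaACGTGccagaaagttta
PLOD2, 146 bases before the RefSeq start, chr3:146161314-146161342: caaacagtccagACGTGgggcccaggagg
PLOD2, 200 bases before the RefSeq start, chr3:146161368-146161396: cgtgagcctccaCACGTagccgcaggcag
P4HA1, 86 bases before the RefSeq start, chr10:73096936-73096964: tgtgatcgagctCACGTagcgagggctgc
A match is a run of letters, not a measured binding site. Whether these letters bear on the values below was not tested.

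Total counts per library ran from 34633755 to 49342659. The replicate libraries differed by more than counting noise, and no pair was treated as 1 library. Of the line's markers, the mesenchymal genes VIM and CD44 stood at 3674 and 859 CPM (counts per 1000000 of the TMM-scaled library) in untreated cells, and the epithelial genes EPCAM and CDH1 at 1.13 and 0.624 CPM. ESR1 had at most 9 counts in any library, PGR had 0, and ERBB2 stood at 81.4 CPM. Of the 5 markers tested, VIM and CD44 rose and ERBB2 fell at 8 h, with CDH1 at -0.84 and EPCAM at 0.35 on the log2 scale not called. At 24 h CDH1 rose, by 2.33 on the log2 scale from that low level, while VIM and ERBB2 fell. The part of these changes in the values below was not tested. In bulk RNA, fewer cells expressing a gene and less RNA per cell cannot be told apart.

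On hg38 (GENCODE annotation) the lysyl oxidase genes lie apart from each other, LOX at chr5:122063195-122078413 (minus strand), LOXL1 at chr15:73925989-73952137 (plus), LOXL2 at chr8:23296897-23425328 (minus), LOXL3 at chr2:74532258-74555690 (minus) and LOXL4 at chr10:98247690-98268194 (minus). The hydroxylase genes are PLOD1 at chr1:11934205-11975538 (plus), PLOD2 at chr3:146035139-146163725 (minus), PLOD3 at chr7:101205977-101218420 (minus), P4HA1 at chr10:73007217-73096974 (minus) and P4HA2 at chr5:132190147-132295315 (minus). Counts are over their exons, UTRs included.

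In untreated cells the hydroxylases and LOXL2 were abundant and the other lysyl oxidases were scarce. Per kilobase of the canonical transcript, PLOD1 stood highest at 89.7 ± 7.003 CPM per kb (SD, n = 3), followed by PLOD3 at 78.3 ± 0.121 and LOXL2 at 67.8 ± 5.40 CPM per kb. P4HA1 at 40.0 ± 5.27 and PLOD2 at 38.2 ± 3.26 CPM per kb overlapped, and P4HA2 stood apart below them at 20.1 ± 1.66 CPM per kb. A wide gap separated these 6 genes from LOXL1 at 3.46 ± 0.417, LOX at 2.90 ± 0.673 and LOXL4 at 2.85 ± 0.432 CPM per kb, whose libraries overlapped. LOXL3 was lowest at 0.723 ± 0.105 CPM per kb. With the length of all annotated exons in place of the canonical transcript, LOXL2 moved above PLOD3. Among the scarce members LOXL4 then stood above LOX, and LOX above LOXL1. The largest effect was on PLOD2, which stood at 9.87 CPM per kb by that length, well below P4HA1 at 35.5.

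The order changed with treatment. At 8 h PLOD3 was the most abundant of the 10 at 88.8 CPM per kb, above PLOD1 at 76.7, because PLOD3 had risen and PLOD1 had fallen. At 24 h PLOD1 was again first, at 88.3 CPM per kb, and LOXL2 at 69.2 overlapped PLOD3 at 63.4 CPM per kb. Among the scarce members LOXL4 stood apart at 4.62 CPM per kb at 24 h, while LOXL1, at 0.653, had dropped below LOXL3, at 0.910 CPM per kb.

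The comparison of treated with untreated cells asks how these transcripts differed after TEPA. Copper was not measured in these libraries, and with 1 untreated group for both times, time in culture and TEPA cannot be told apart. At 8 h 8 of the 10 genes fell and 1, PLOD3, rose, at an adjusted p under 0.05 (edgeR's quasi-likelihood test, Benjamini-Hochberg over all genes tested). Over all genes tested 24.5% were called lower and 25.2% higher at that time. The same 8 and 1 had treated and untreated libraries that did not overlap, against 28.6% of all genes lower and 29.2% higher. The median log2 fold change of the 10 was -0.54, beside -0.001 over all genes tested. At 24 h 5 fell and 2 rose, where 26.8% of all genes were called lower and 25.7% higher, and the groups did not overlap for the same 5 and 2, against 28.9% lower and 28.4% higher over all genes. The median of the 10 at 24 h was -0.21, beside 0.002 over all genes tested. From 8 h to 24 h 2 fell and 5 rose, where 28.8% of all genes were called lower and 26% higher, and again the same numbers did not overlap, against 32.4% lower and 29.6% higher over all genes.

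The lysyl oxidases did not move as a group. LOXL1, which is needed for elastic fibre renewal, fell at both times and furthest of the 10. It was at 9.20, 7.29 and 7.86 CPM in the untreated libraries, 3.17, 3.08 and 3.18 CPM at 8 h and 1.53, 1.62 and 1.45 CPM at 24 h. The 3 groups did not overlap, and the 24 h libraries were the lowest. The fall was 2.57-fold at 8 h (log2 fold change -1.36, SE 0.11, adjusted p = 1.1e-07, edgeR) and 5.26-fold at 24 h (-2.40, SE 0.12, adjusted p = 3.8e-10, edgeR). The fall from 8 h to 24 h was also called, at -1.03 (SE 0.133, adjusted p = 8.3e-06, edgeR).

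LOX, the founding member of the family, reached a lower level by 8 h and stood at that level at 24 h. It was at 18.5, 11.95 and 13.6 CPM in untreated cells, 8.999, 8.05 and 8.54 CPM at 8 h and 8.38, 8.80 and 9.06 CPM at 24 h. Every treated library lay below every untreated one, and the 2 TEPA groups overlapped. Untreated replicate 1 was the highest of all 9. The log2 fold change was -0.78 at 8 h (SE 0.124, adjusted p = 8.8e-05, edgeR) and -0.75 at 24 h (SE 0.122, adjusted p = 9.8e-05, edgeR). Without untreated replicate 1 these became -0.58 and -0.55, still called. The 24 h against 8 h difference was 0.03, with a 95% interval from -0.24 to 0.31.

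LOXL2, by far the most abundant lysyl oxidase of these cells, fell and came back. It was at 274, 235 and 247 CPM in untreated cells, 165, 175 and 173 CPM at 8 h and 253, 275 and 245 CPM at 24 h. The 8 h libraries lay below all others, and the 24 h libraries overlapped the untreated ones. The log2 fold change at 8 h was -0.56 (SE 0.0545, adjusted p = 6.9e-07, edgeR), and the rise from 8 h to 24 h was 0.59 (adjusted p = 2.4e-07, edgeR). At 24 h against untreated the value was 0.03, with a 95% interval from -0.08 to 0.14. In the annotation LOXL2 shares 120 exon bases with ENTPD4 on the same strand.

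LOXL4, a close relative of LOXL2 and LOXL3, fell at 8 h and rose above the untreated level at 24 h. It was at 11.97, 8.93 and 9.89 CPM in untreated cells, 6.02, 6.22 and 5.90 CPM at 8 h and 16.9, 17.3 and 15.7 CPM at 24 h. The 3 groups did not overlap, with 8 h lowest and 24 h highest. The change in LOXL4 on the log2 scale was -0.76 at 8 h (SE 0.1, adjusted p = 1.5e-05, edgeR) and 0.70 at 24 h (SE 0.0901, adjusted p = 8.7e-06, edgeR). Between the 2 times it rose 2.75-fold (1.46 on the log2 scale, adjusted p = 7.1e-09, edgeR), the largest difference between times among the 10.

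LOXL3, the scarcest of the family per kilobase in untreated cells and at 8 h, had values above the untreated mean at both times that lay near the threshold. It was at 3.09, 2.34 and 2.56 CPM in untreated cells, 3.37, 3.61 and 2.99 CPM at 8 h and 3.12, 3.59 and 3.36 CPM at 24 h, from 101 to 159 counts per library. The 8 h libraries overlapped the untreated ones, while those at 24 h lay just above them. The log2 fold change was 0.33 at 8 h (95% interval 0.04 to 0.61, adjusted p = 0.0559, edgeR) and 0.34 at 24 h (SE 0.133, adjusted p = 0.044, edgeR). The call at 24 h was lost when untreated replicate 2 or 3, or TEPA 24 h replicate 2 or 3, was left out, and a call was gained at 8 h (log2 fold change 0.44, adjusted p = 0.0154, edgeR) when untreated replicate 1 was left out, and likewise (0.39, adjusted p = 0.0459, edgeR) without TEPA 8 h replicate 3.

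**Figure D1:**
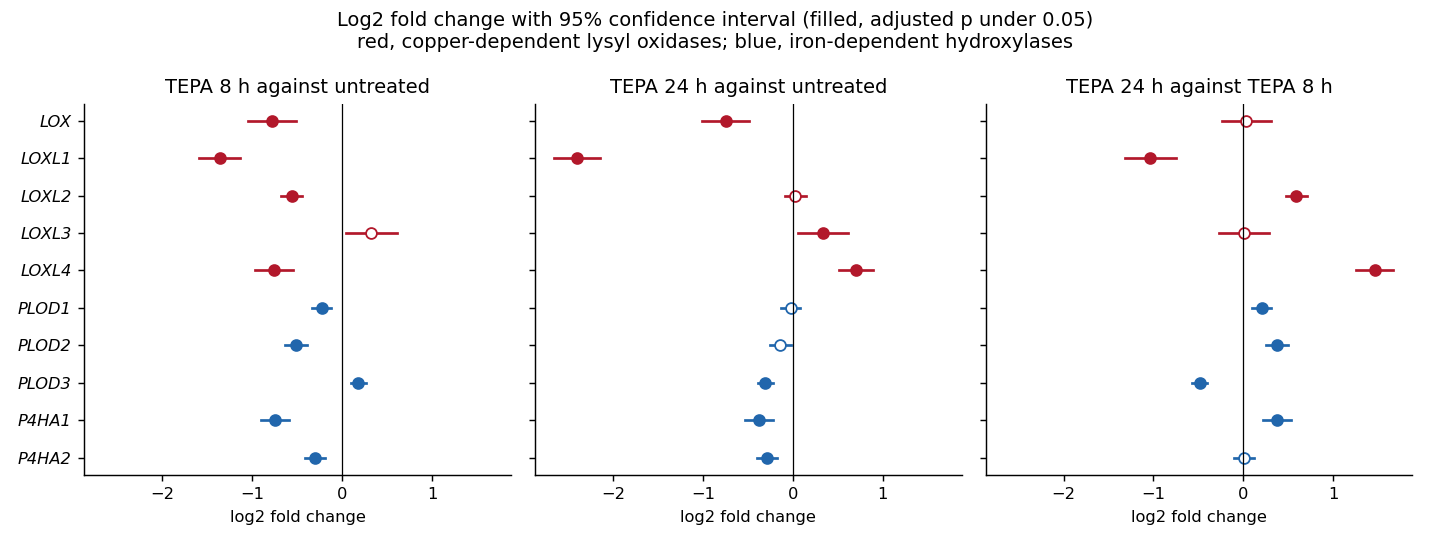
Log2 fold change of each of the 10 genes in the 3 comparisons, with 95% intervals from the edgeR fit and n = 3 libraries per group. The lysyl oxidases spread from -2.40 to 0.70 at 24 h, and the hydroxylases from -0.37 to -0.02.

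Among the lysyl hydroxylases, PLOD2 and PLOD1 fell at 8 h and PLOD3 rose. PLOD2 was at 156, 132 and 142 CPM in untreated cells, 104, 97.6 and 99.1 CPM at 8 h and 131, 122 and 137 CPM at 24 h. The 8 h libraries were the lowest, and those at 24 h overlapped the untreated ones. On the log2 scale PLOD2 changed by -0.51 at 8 h (SE 0.0569, adjusted p = 2.6e-06, edgeR). At 24 h it was -0.14 (95% interval -0.26 to -0.02, adjusted p = 0.050, edgeR), just outside the threshold, and from 8 h to 24 h PLOD2 rose by 0.38 (adjusted p = 4.2e-05, edgeR). The 24 h value became -0.07 without untreated replicate 1, and it passed the threshold at -0.20 (adjusted p = 0.0066, edgeR) without untreated replicate 2 and at -0.17 (adjusted p = 0.027, edgeR) without TEPA 24 h replicate 3.

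PLOD1, which hydroxylates lysines of the helix, made the smallest fall at 8 h. It was at 290, 250 and 261 CPM in untreated cells, 227, 226 and 231 CPM at 8 h and 262, 277 and 249 CPM at 24 h. The 8 h libraries lay below all others and those at 24 h overlapped the untreated ones. For PLOD1 that was a log2 fold change of -0.23 at 8 h (SE 0.0509, adjusted p = 0.0017, edgeR) and -0.02 at 24 h (95% interval -0.13 to 0.09).

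PLOD3, which also transfers the sugars of collagen's hydroxylysines, rose at 8 h and fell at 24 h. It was at 220.7, 221.3 and 220.6 CPM in untreated cells, 246, 253 and 253 CPM at 8 h and 178, 188 and 170 CPM at 24 h. The 3 groups did not overlap, with 8 h highest and 24 h lowest. It rose by 0.18 at 8 h (SE 0.0387, adjusted p = 0.0011, edgeR) and was at -0.30 at 24 h (SE 0.0389, adjusted p = 8.6e-06, edgeR), and the fall from 8 h to 24 h was -0.48 (adjusted p = 5.4e-08, edgeR). PLOD3 was the sole member to rise at 8 h and then fall below the untreated level, the mirror of LOXL4.

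Both prolyl 4-hydroxylase alpha subunits among the members fell at both times. Another alpha subunit, P4HA3, had 2 to 10 counts per library and was not tested. P4HA1 was at 125, 95.8 and 109 CPM in untreated cells, 64.8, 66.0 and 64.9 CPM at 8 h and 85.5, 78.6 and 89.8 CPM at 24 h. The 3 groups did not overlap, and the 24 h libraries lay between the others. On the log2 scale P4HA1 changed by -0.75 at 8 h (SE 0.0729, adjusted p = 6.9e-07, edgeR) and -0.37 at 24 h (SE 0.0716, adjusted p = 4.0e-04, edgeR), with a rise of 0.38 between the times (adjusted p = 4.3e-04, edgeR). P4HA2 was at 99.6, 85.0 and 89.1 CPM in untreated cells, 73.5, 74.7 and 74.1 CPM at 8 h and 73.1, 77.8 and 72.9 CPM at 24 h. Its treated groups overlapped each other and lay below the untreated one. The log2 fold change of P4HA2 was -0.30 at 8 h (SE 0.052, adjusted p = 2.0e-04, edgeR) and -0.29 at 24 h (SE 0.0518, adjusted p = 2.2e-04, edgeR), and the difference between the times was 0.01 (95% interval -0.10 to 0.12).

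Set side by side by metal, 4 of the 5 copper enzymes and 4 of the 5 iron enzymes fell at 8 h, with medians of -0.76 and -0.30. At 24 h 2 copper enzymes fell and 2 rose, with a median of 0.03, while 3 iron enzymes fell and none of them rose, with a median of -0.29. These counts turn on genes near the threshold. The rise of LOXL3 (adjusted p = 0.044, edgeR) was lost under several alternatives, and PLOD2 lay just outside (adjusted p = 0.050, edgeR). Over all genes tested 24.5% were called lower and 25.2% higher at 8 h, and 26.8% and 25.7% at 24 h. Classes of 5 genes are too small to be set against those shares. Without untreated replicate 1 the median of the copper enzymes at 24 h was 0.093. No test was made between the 2 classes.

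The untreated libraries were spread in the same order for nearly all members. Untreated replicate 1 was the highest of the 3 for 9 of the 10 genes and replicate 2 the lowest for 9, PLOD3 being the exception to both. Over all genes tested replicate 1 was highest for 38.9% and replicate 2 lowest for 34.4%. Without untreated replicate 1, 8 members were called lower and 2 higher at 8 h, with a median of -0.47, and 5 lower and 2 higher at 24 h, with a median of -0.15.

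Apart from the prior count of 2 in the log2 CPM, ratios of 2 members within a library do not depend on how libraries are scaled. The 9 pairs examined were chosen after the values were seen and are given as a description. The log2 ratio of LOXL1 to LOX averaged -0.84 in untreated cells, -1.42 at 8 h and -2.48 at 24 h, with no overlap between groups. That of LOXL4 to LOX was -0.50 and -0.49 in the first 2 groups, which overlapped, and 0.92 at 24 h. LOXL4 over LOXL1 went from 0.33 in untreated cells to 0.93 at 8 h and 3.40 at 24 h. These ratios are not corrected for transcript length, so they compare groups and not genes. PLOD3 over PLOD2 averaged 0.63 in untreated cells, 1.32 at 8 h and 0.46 at 24 h. P4HA1 over P4HA2 averaged 0.26, -0.18 and 0.18, the 24 h libraries overlapping the untreated ones.

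Summed per length over the 5 lysyl oxidases, the family stood at 85.5, 71.8 and 76.0 CPM per kb in untreated libraries, 50.1, 52.6 and 52.1 CPM per kb at 8 h and 75.9, 82.1 and 73.4 CPM per kb at 24 h. The sum followed LOXL2, which held 86.3 to 88.1% of it in untreated cells and 89.5 to 90.0% at 24 h. The share of LOXL1 went from 4.33 to 4.59% in untreated cells to 0.839 to 0.860% at 24 h, and that of LOXL4 from 3.46 to 3.89% to 5.86 to 6.18%. Among the lysyl hydroxylases, the share of PLOD3 was 36.0 to 39.7% in untreated cells, 45.5 to 46.8% at 8 h and 33.4 to 34.7% at 24 h. P4HA1 and P4HA2 summed to 67.3, 53.6 and 59.2 CPM per kb in untreated libraries, 39.8, 40.5 and 39.9 CPM per kb at 8 h and 47.3, 45.8 and 48.8 CPM per kb at 24 h, the TEPA libraries all lying below the untreated ones.

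Across the 9 libraries some members kept step, given as a description over libraries that share groups and untreated replicate 1's high values. Of 45 pairs the 3 highest values of Pearson's r of log2 CPM were 0.975 between LOX and P4HA2, 0.962 between PLOD2 and P4HA1 and 0.937 between LOXL2 and PLOD1, and each pair joins a copper enzyme with an iron enzyme or 2 iron enzymes. The lysyl oxidases LOXL1 and LOXL2 had an r of 0.054, and LOXL4 and PLOD3 one of -0.946. Among 11919 genes with a mean of at least 100 counts, the 3 nearest in pattern to LOX were HMCES (r = 0.979), TGFBR2 (0.976), the type II TGF-β receptor, and CCDC113 (0.975). For LOXL1 they were ARF3 (0.999), CSRP1 (0.998) and ETV4 (0.998), an ETS transcription factor. For LOXL4 they were RFX5 (0.999), CSF1 (0.998), the macrophage colony-stimulating factor, and FHL1 (0.998), with CSF1 at -0.79 at 8 h and 0.74 at 24 h on the log2 scale. For P4HA1 they were ITFG1 (0.992), SYNC (0.991) and SERPINB1 (0.987).

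The genes that work with these enzymes were mixed in direction. The counts of these lists stand against 24.5% of all genes called lower and 25.2% higher at 8 h, and 26.8% and 25.7% at 24 h. Some are near those shares and others are not, no list was tested as a list, and the counts describe the named genes only. Of 15 collagen modification and folding partners 14 were tested, of which 7 fell and 3 rose at 8 h (median -0.17, or -0.11 without untreated replicate 1) and 8 fell and 4 rose at 24 h (median -0.14). P3H2, a prolyl 3-hydroxylase, had the largest fall at 8 h, -0.74 (98.8 to 59.2 CPM). SERPINH1, the collagen chaperone HSP47, had the largest at 24 h, from 286 ± 12.4 CPM in untreated cells to 111 ± 2.34 CPM (SD, n = 3), at -0.60 at 8 h and -1.36 at 24 h. Against the list's direction MIA3, a carrier of procollagen export, rose at both times (0.30 and 0.11), as did TMEM38B (0.14 and 0.22). FKBP10, which acts with PLOD2, rose by 0.18 at 8 h and was at -0.40 at 24 h. FKBP14, a prolyl isomerase of the endoplasmic reticulum, rose by 0.56 at 24 h, the largest rise, and COLGALT1, a collagen galactosyltransferase, by 0.38. P4HB, the partner of the alpha subunits, fell by 0.22 at 8 h and was at -0.05 at 24 h, not called.

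**Figure D2:**
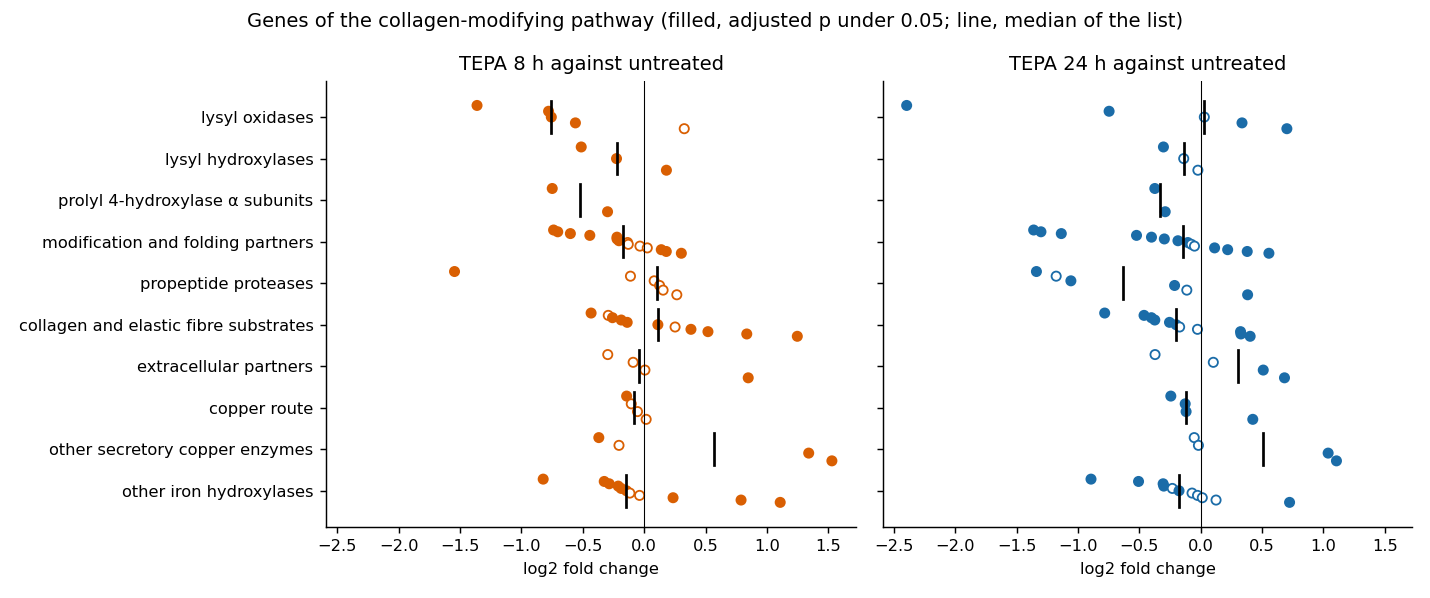
Log2 fold changes of the tested genes of each pathway list at 8 h and 24 h, with 1 point per gene, filled at an adjusted p under 0.05, and a line at each list's median. The lists of partners hold genes on both sides of 0 at both times, and the lowest point at 8 h is TLL2, a gene of few counts.

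Among the substrates, 11 of 15 genes were tested, with 4 lower and 5 higher at 8 h (median 0.11) and 6 lower and 3 higher at 24 h (median -0.20). COL1A1 had the largest rise at both times, by 1.25 at 8 h (32.4 ± 0.552 CPM against 13.7 ± 0.5 CPM in untreated cells, SD, n = 3) and by 0.40 at 24 h (18.04 ± 0.714 CPM). COL4A1, of basement membranes, had the largest fall at both, -0.43 and -0.78. COL7A1, of anchoring fibrils, rose by 0.84 at 8 h and was at -0.25 at 24 h, and COL12A1, COL5A1 and FBN1 rose at 8 h by 0.52, 0.11 and 0.38. Besides COL4A1, the genes COL4A2, COL6A1 and COL6A2 were called lower at 8 h, at -0.19, -0.14 and -0.26. At 24 h COL6A1 and COL5A2 rose, by 0.33 and 0.32. COL1A2, COL3A1, ELN and FBN2 had too few counts to be tested.

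Of the proteases that release collagen and lysyl oxidase propeptides, and their enhancers, 6 of 8 were tested. At 8 h 1 fell and none rose (median 0.10), the one being TLL2 at -1.55 with 1 to 14 counts per library, and PCOLCE had the highest value, 0.27, not called. At 24 h 3 fell and 1 rose (median -0.64). BMP1, which cleaves the LOX propeptide, fell by 0.21, ADAMTS14 by 1.34 with 6 to 24 counts, and PCOLCE2 by 1.06, while PCOLCE rose by 0.38. Of 6 extracellular partners 4 were tested, and none fell. THBS1 rose at both times (0.85 and 0.51), EFEMP2, a fibulin that presents LOX to elastin, rose by 0.68 at 24 h, and FBLN5, at -0.30 and -0.37, was not called. The medians of the 4 were -0.04 and 0.31, and the first turned to 0.10 without untreated replicate 1.

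The route that carries copper to these enzymes was also mixed in direction. All 4 genes were tested, with 1 lower and none higher at 8 h (median -0.08) and 3 lower and 1 higher at 24 h (median -0.12). SLC31A1, the uptake transporter, fell by 0.14 at 8 h and 0.13 at 24 h. ATP7A, the pump that loads secreted copper enzymes, was at 0.02 at 8 h, not called, and rose by 0.42 at 24 h, while ATP7B fell by 0.24 and ATOX1 by 0.12. Of 10 other copper enzymes of the secretory pathway 4 were tested, with 1 lower and 2 higher at 8 h (median 0.57) and none lower and 2 higher at 24 h (median 0.51). PAM, which amidates peptides, fell by 0.37 at 8 h and was at -0.05 at 24 h. AOC3 rose by 1.53 and 1.11 and AOC2 by 1.34 and 1.04, and since the 2 are neighbouring, similar genes their reads may not be fully separated. All 11 other iron and 2-oxoglutarate hydroxylases were tested, with 6 lower and 3 higher at 8 h (median -0.14) and 5 lower and 1 higher at 24 h (median -0.18). EGLN3, a sensor of oxygen, fell most at 8 h (-0.82) and was back at 0.01 at 24 h, and OGFOD3 fell most at 24 h (-0.89). OGFOD2 rose at both times (1.11 and 0.72), and EGLN2 and JMJD6 rose at 8 h (0.79 and 0.24).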

How the data were processed

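RNA-Seq libraries were stranded, paired-end and poly(A)-selected. The authors checked reads with FastQC, aligned them to hg38 with HISAT2 and counted read pairs per gene name over exons with featureCounts, using strand. The deposited values are raw counts, 1 column per library, with no normalization and 0 columns left out. The counts were filtered with filterByExpr (minimum count 10) of edgeR 4.0.16 in R 4.3.3 and scaled by TMM, and 1 quasi-likelihood model of group was fitted to all 9 libraries. The kept genes held 99.95% of counts. A gene was called at a Benjamini-Hochberg adjusted p under 0.05 over all genes tested. Intervals are 95%. With 3 libraries against 3 a permutation test cannot go below p = 0.1, so none was used. The prior count of 2 applies to the log2 CPM used for likeness, correlations, residuals and ratios within a library. Transcript lengths and positions came from GENCODE 44 and promoters from RefSeq.

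Members and lists were chosen with earlier results of these data known. All 10 members were named. From each list (modification and folding partners, propeptide proteases, substrates, extracellular partners, copper route, other copper enzymes, other iron hydroxylases, cell line markers) the genes named were those with the largest and smallest change and called genes against the list's direction, and for LOX, LOXL1, LOXL4 and P4HA1 the 3 genes nearest in pattern. A few further list genes (P4HB, P4HA3, COLGALT1, FKBP10, ATP7B, ATOX1, PAM, BMP1) were named for their role after their values were seen. Of the substrates, all genes called at 8 h were named. The alternatives were upper-quartile and RLE factors in place of TMM, the test of DESeq2 1.42.0 (the tool the study's methods name), no filter, 10 counts in every library, only the groups compared, a replicate block, each library left out in turn and, for counts of members, a log2 limit of 0.5. Counts of the lists without untreated replicate 1 were added after seeing the data. The procedure was also run on simulated counts in which far fewer genes changed than were called here. That run therefore does not show how the procedure performs in data like these.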

Additional observations from a re-analysis of the deposited data

Results flagged for a closer look

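For 7 of the 10 genes the effect at 24 h differed from that at 8 h by a test of the difference itself (edgeR's quasi-likelihood test of 24 h against 8 h). The untreated mean cancels in that test, but the untreated libraries still enter its estimate of the spread. The log2 difference was 1.46 for LOXL4, 0.59 for LOXL2, 0.38 for P4HA1, 0.38 for PLOD2 and 0.20 for PLOD1, all higher at 24 h. It was -1.03 for LOXL1 and -0.48 for PLOD3, both lower at 24 h. Over all genes tested 28.8% were called lower and 26% higher between the times, and 32.4% lower and 29.6% higher did not overlap. Counts out of 10 genes are too small to be set against those shares, and the values describe each gene. In each case the 3 libraries of one time lay all above the 3 of the other. LOXL4 and PLOD3 were called on opposite sides of the untreated level at the 2 times, in opposite order.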

How the results depend on the processing

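Of the 390 values of member genes under the alternatives, 366 kept direction and call. The members called higher at 8 h were 1, and became 2 with upper-quartile factors, 0 with the log2 limit of 0.5, and 1 to 2 with a library left out. At 24 h the 7 called became 3, and the 5 lower 2, with the log2 limit. The 2 higher at 24 h became 1 with DESeq2, with no filter, with only the groups compared, with the replicate block and with the log2 limit, and ranged from 1 to 2 with a library left out. Between times the 7 called became 3, the 2 lower 1 and the 5 higher 2 with the log2 limit. LOXL3 at 24 h gave adjusted p = 0.0762 with DESeq2, 0.0606 with no filter, 0.0578 with only the groups compared and 0.0629 with the replicate block.

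Signs turned for uncalled values near 0. With a library left out, LOXL2 at 24 h ranged from -0.0207 to 0.0926, PLOD1 at 24 h from -0.0704 to 0.0396 and, between times, LOX from -0.0026 to 0.0781, LOXL3 from -0.0531 to 0.0769 and P4HA2 from -0.0203 to 0.0272. PLOD1 at 24 h was 0.0038 with upper-quartile factors. The cause was not tested.

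Same-numbered libraries did not deviate together (residual r from -0.080 to 0.038 over 9 pairs, and 6 of 18 best matches with the same number). The numbers gave no sign of a pairing, which this check cannot exclude. With the replicate block 9 members were called at 8 h, 7 at 24 h (6 lower, 1 higher) and 7 between times. The block moved PLOD2 at 24 h inside the threshold (-0.14, adjusted p = 0.024, edgeR), as did no filter (adjusted p = 0.0061, edgeR). PLOD2 stayed outside it with upper-quartile factors (adjusted p = 0.111, edgeR) and RLE factors (adjusted p = 0.065, edgeR). The same held with 10 counts in every library (adjusted p = 0.069, edgeR), only the groups compared (adjusted p = 0.082, edgeR) and DESeq2 (adjusted p = 0.060). Without untreated replicate 1 list counts moved by at most 1, the rises among other iron hydroxylases at 24 h going from 1 to 2. The median of the extracellular partners at 8 h turned from -0.04 to 0.10, and those of the lysyl oxidases at 24 h (0.03 to 0.093) and of the folding partners at 8 h (-0.17 to -0.11) moved by over 1.5 times. So did the medians at 24 h of the lysyl hydroxylases (-0.14 to -0.073) and of the cell line markers (-0.017 to -0.046). Low counts limit TLL2, ADAMTS14 and LOXL3.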
